A study of Mus musculus with 24 samples.

Results

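The comparison described here is between 2 times of reperfusion in the lungs of young mice, 1 day and 1 h after the blood supply was restored, and it asks which early changes had receded by 1 day and which genes rose late. Its members are the 4 libraries titled young 1 day and the 4 titled young 1 h, 8 of the 24 libraries of the series. All of these lungs came from wild-type male C57BL/6J mice aged 8 to 12 weeks, and all had been ischemic: the artery, vein and bronchus of the left lung were clamped together for 60 min and then released. The other groups, with 4 libraries each, are young sham, old 1 day, old 1 h and old sham, where old mice were 22 to 24 months of age. The old 1 day and old 1 h lungs had the same clamping and reperfusion. The labels state neither the time at which sham lungs were taken nor that each library came from a separate animal. P-values of the main gene test weigh a difference against the spread between samples, pooled over the groups of all 24 libraries. Whether that is the spread between animals is not known. No batch, date or lane is given.

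Clamping the hilum stops both perfusion and ventilation, and its release brings back oxygen, shear and stretch at the same moment. In many tissues the first response to such stress is a burst of immediate early genes, heat shock proteins and NF-kB targets, most of which carry their own feedback and have short-lived mRNAs. Later phases of lung injury are known for the arrival of monocytes that become macrophages, for local acute-phase proteins, and for the division of endothelial and epithelial cells that replace those lost.

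RNA was sequenced from lung tissue (the labels do not say which part of the lungs), and counts are estimates per transcript summed per gene. Library totals were 28611963 to 44504824 estimated reads in young 1 day and 27850677 to 42241406 in young 1 h lungs, and levels are given as TMM-scaled counts per 1e6 reads (CPM). Lung markers were abundant in all 8 libraries: the surfactant gene Sftpc stood at 8396 to 12352 CPM at 1 day and 8729.9 to 12645 CPM at 1 h, and the alveolar type 1 receptor gene Ager at 1495 to 1765 CPM at 1 day and 1492 to 2038 CPM at 1 h. The mitochondrial mRNAs made up 2.86% ± 0.334 of counts for sham, 1.33% ± 0.189 for 1 h and 1.05% ± 0.291 for 1 day lungs of young mice (SD, n = 4). In old lungs the share was 3.13% to 3.95% in sham, 3.18% to 4.26% at 1 h and 2.47% to 3.07% at 1 day. In young lungs the difference between 1 day and 1 h was not past the threshold (exact permutation test, two-sided, p = 0.2; smallest possible p 0.0286). Across 18160 genes, Spearman's rho between the log2 change of 1 day against 1 h and GC content was 0.0889, whereas it was 0.451 for young 1 h and 0.42 for young 1 day against sham; genes are not independent replicates. Comparisons with sham were therefore also fitted with GC offsets, which remove a smooth trend of each library on GC content, an alternative chosen after seeing the data.

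Of 19690 genes tested by edgeR's quasi-likelihood test, 4828 (24.5%) rose and 4355 (22.1%) fell in young 1 day relative to young 1 h lungs at an adjusted p under 0.05. Larger changes were more often falls: 1035 genes (5.26%) rose more than 2-fold and 1707 (8.67%) fell more than 2-fold. The median log2 change over all genes was 0. In the text below, a gene that rose or fell passed this test over all genes, values written with ± after a log2 change are its standard error (SE), values with ± after CPM are SD over 4 libraries, and the 4 libraries of both times did not overlap unless overlap is stated. Counts of members of a gene list are read against these shares of all genes, and the lists were not tested as sets.

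**Figure D1:**
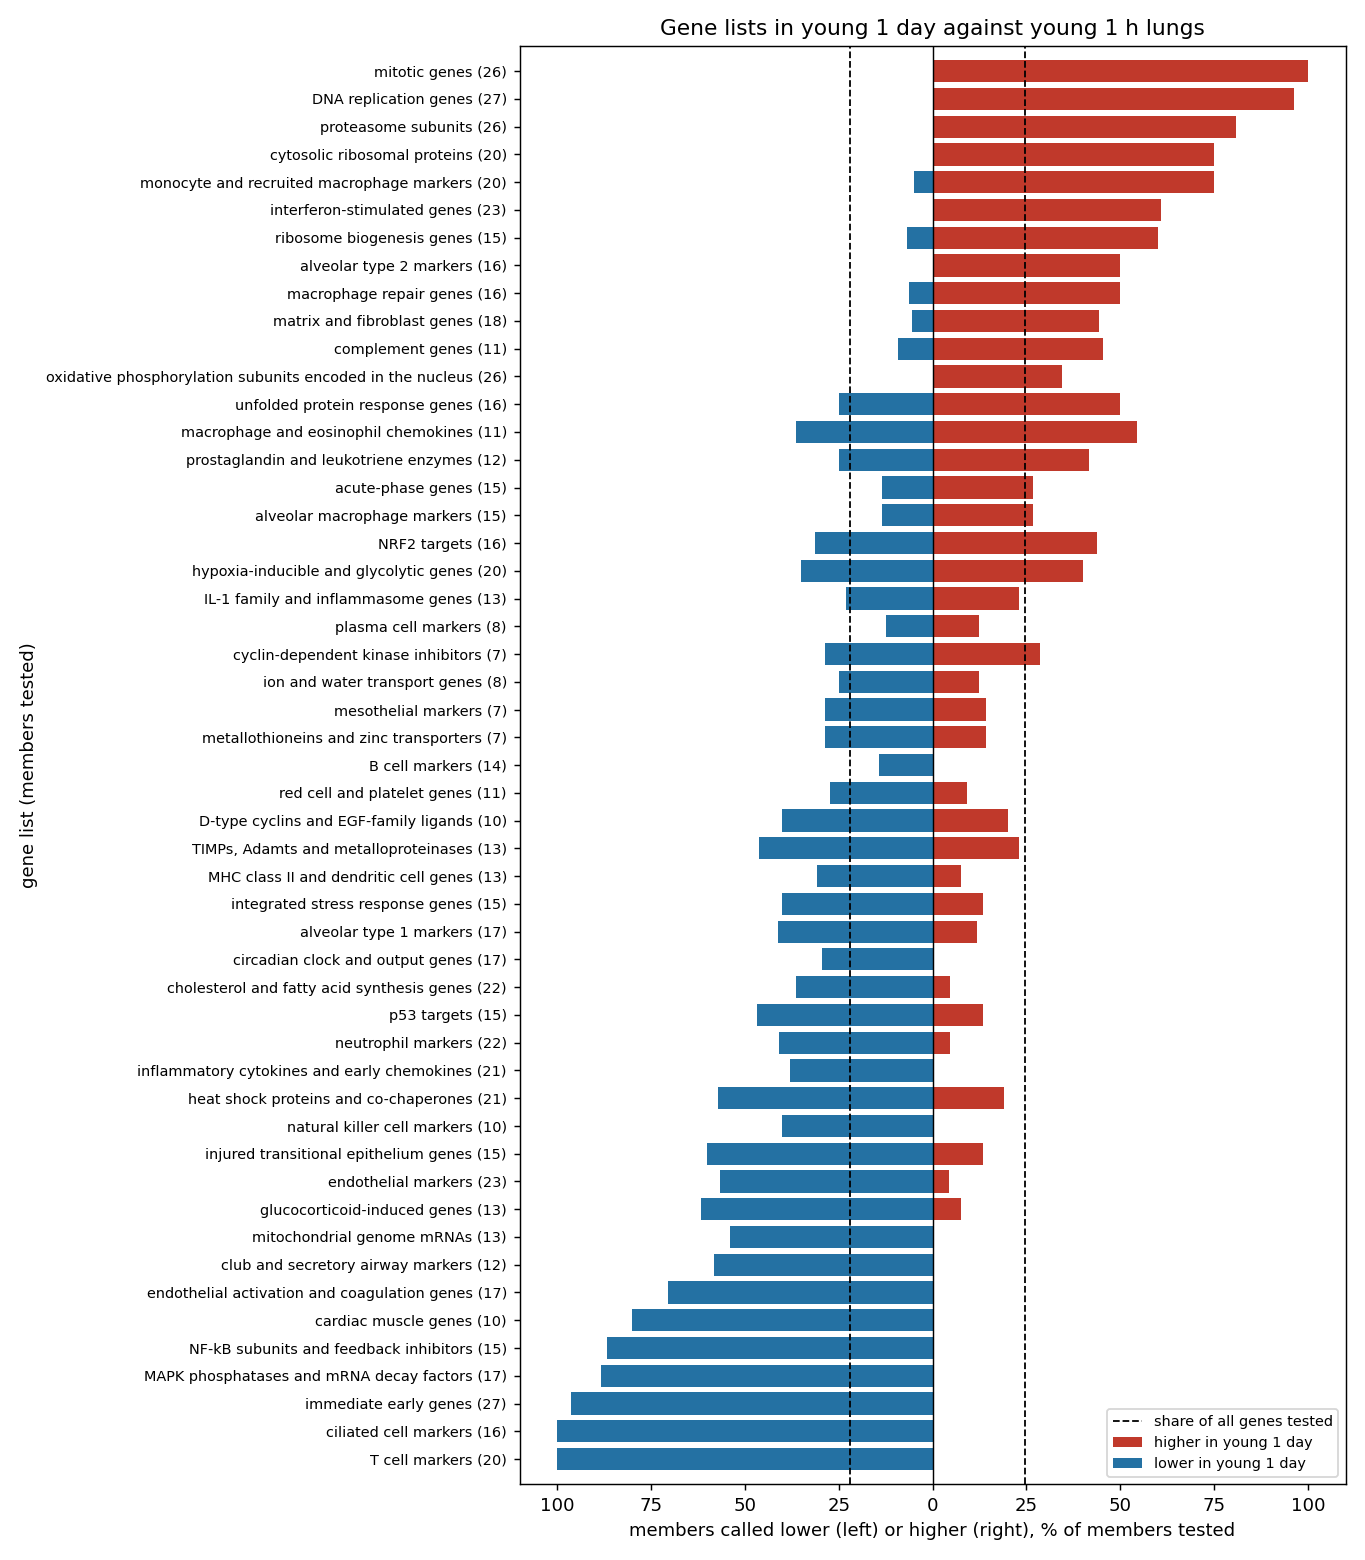
Share of each gene list called lower (blue, left) or higher (red, right) in young 1 day against young 1 h lungs, in % of the members tested; dashed lines mark the shares of all genes tested, 22.1% and 24.5%. Mitotic and DNA replication genes stand at one end, and T cell, ciliated cell and immediate early genes at the other.

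The steepest falls of the genes named included immediate early genes, the transcription factors and effectors that cells switch on within minutes of a stimulus. Fosb (Entrez 14282, chromosome 7, 19302696 to 19310118, mm10), an AP-1 subunit, was at 3.92, 12.3, 3.41 and 1.20 CPM in young 1 day lungs, against 1103, 1014, 1006 and 1434 CPM in young 1 h lungs. All 4 libraries at 1 day lay far below those at 1 h, and the log2 change was -7.79 ± 1.35 (221-fold, adjusted p = 0.000111), or -8.64 without young 1 day replicate 2, the highest of its group. Atf3, a stress-induced AP-1 partner, was at 20.8, 16.6, 19.4 and 21.2 CPM in young 1 day lungs, against 1041, 1057, 881 and 1427 CPM in young 1 h lungs. For Atf3 the log2 change was -5.82 ± 0.67 (adjusted p = 1.54e-06). Fos was at 68.98, 43.1, 35.2 and 30.99 CPM in young 1 day lungs, against 1209, 1076, 895 and 1505 CPM in young 1 h lungs, a 26.3-fold fall. The zinc finger factor Egr1 was at 110.3, 89.03, 74.1 and 50.4 CPM in young 1 day lungs, against 1199.7, 1004, 1075 and 1579 CPM in young 1 h lungs. Egr1 had a log2 change of -3.91 ± 0.77 (adjusted p = 0.000362). In each of these genes the lowest library at 1 h was several times the highest at 1 day.

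Arc (Entrez 11838, chromosome 15), best known from activated neurons, was at 1.59, 1.93, 1.25 and 1.55 CPM in young 1 day lungs, against 105.0, 66.1, 45.4 and 86.7 CPM in young 1 h lungs. For Arc the log2 change was -5.59 ± 0.39 (adjusted p = 3.44e-09). The orphan nuclear receptor Nr4a3 averaged 5.99 ± 0.914 CPM at 1 day and 204 ± 40.5 CPM at 1 h, and the AP-1 subunit Fosl1 averaged 1.68 ± 0.528 CPM at 1 day and 35.1 ± 16.9 CPM at 1 h. The smallest p in this group belonged to Srf, the serum response factor that drives many of the others, which was at 101.4, 82.96, 91.7 and 96.4 CPM in young 1 day lungs, against 302, 304, 269.5 and 367 CPM in young 1 h lungs. Srf had a log2 change of -1.74 ± 0.09 (adjusted p = 1.84e-10). Of 27 immediate early genes 26 fell and none rose, with a median log2 change of -2.27. The exception, Klf2, is outside the rule for named genes and is given because it was alone. In young 1 h lungs 23 of the 27 were higher than sham and none lower, where 21.2% and 20.1% of all genes were called. In young 1 day lungs 3 were higher and 6 lower than sham, where 27.9% and 26.0% of all genes were called; with GC offsets none was higher and 10 were lower. These comparisons share libraries with each other and with the main one. Nr4a3, for example, was -3.38 ± 0.48 on the log2 scale against sham at 1 day (adjusted p = 5.62e-06), and Fosb -3.45 ± 1.12 (adjusted p = 0.0137), whereas Arc was at -0.18 ± 0.39 and did not pass (adjusted p = 0.725).

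The RefSeq promoter window of Srf (GRCm38.p6) holds matches to the serum response element, the sequence its own protein is known to bind. The 250 bases before its start are shown because Srf fell with the smallest p of the list, with the 2 matches to the element in capitals (chr17:46556163-46556412, minus strand).
Srf: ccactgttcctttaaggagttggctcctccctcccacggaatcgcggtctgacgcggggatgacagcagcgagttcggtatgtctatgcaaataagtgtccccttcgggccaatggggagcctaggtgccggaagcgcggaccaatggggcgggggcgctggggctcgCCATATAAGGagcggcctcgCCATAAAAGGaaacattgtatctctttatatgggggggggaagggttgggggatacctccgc
A serum response element, 2 C, 6 bases of A or T and 2 G, was found in 5 of 27 promoter windows (18.5%) of the 21 immediate early genes that had one, and in 535 of all 32851 windows (1.63%); windows run from 250 bases before to 50 after a start, both strands were read, and the 5 windows belong to 2 genes, Egr2 and Srf. The CRE, TGACGTCA, was found in 2 of the 27 windows (7.41%), those of Btg2 and Maff, and in 1.79% of all windows.

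The inducible HSP70 genes, whose protein refolds damaged proteins, fell steeply and were abundant at 1 h. Hspa1a was at 77.2, 95.3, 32.5 and 98.2 CPM in young 1 day lungs, against 3017, 1866, 2096 and 3411 CPM in young 1 h lungs. Hspa1b was at 83.1, 108, 38.5 and 106 CPM in young 1 day lungs, against 3293, 1884, 2113 and 3439 CPM in young 1 h lungs. Every library at 1 h was at least an order of magnitude above every library at 1 day, and young 1 day replicate 3 was the lowest for both. The log2 changes were -5.10 ± 0.32 (adjusted p = 1.18e-09) and -5.00 ± 0.33 (adjusted p = 1.35e-09). These neighbouring genes are nearly identical, so the split of reads between them is uncertain. The fall did not reach the sham level: young 1 day lungs stood above sham by a log2 value of 2.16 ± 0.29 for Hspa1a (adjusted p = 1.92e-06) and 2.34 ± 0.29 for Hspa1b (adjusted p = 1.05e-06). Sham lungs averaged 16.98 ± 1.84 CPM of Hspa1a and 16.6 ± 1.55 CPM of Hspa1b.

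The HSP70 co-chaperone Dnajb1 was at 61.5, 69.05, 52.3 and 70.8 CPM in young 1 day lungs, against 382, 319, 279 and 383 CPM in young 1 h lungs. For Dnajb1 the log2 change was -2.43 ± 0.16 (adjusted p = 1.18e-09). Dnajb4, of the same DnaJ family, averaged 31.8 ± 5.89 CPM at 1 day and 108 ± 14.8 CPM at 1 h, and at 1 day it was below sham (-1.24 ± 0.16, adjusted p = 9e-07). Of 21 heat shock proteins and co-chaperones 12 fell and 4 rose, with a median of -0.57. In the comparisons with sham, 16 were higher and none lower at 1 h, where 21.2% and 20.1% of all genes were. At 1 day 13 were higher and 2 lower, where 27.9% and 26.0% of all genes were.

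The windows before the starts of Hspa1a (chr17:34972157-34972406, minus strand) and Hspa1b (chr17:34959239-34959488, minus strand) are shown because they head the fall and because they show how alike the pair is. They differ at 3 of 250 bases (98.8% identical), and the match to the core heat shock element, GAANNTTC or TTCNNGAA, is in capitals (RefSeq, GRCm38.p6).
Hspa1a: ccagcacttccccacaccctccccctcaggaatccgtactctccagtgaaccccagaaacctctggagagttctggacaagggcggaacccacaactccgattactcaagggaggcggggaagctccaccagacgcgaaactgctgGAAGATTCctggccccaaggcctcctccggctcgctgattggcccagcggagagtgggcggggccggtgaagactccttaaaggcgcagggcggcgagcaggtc
Hspa1b: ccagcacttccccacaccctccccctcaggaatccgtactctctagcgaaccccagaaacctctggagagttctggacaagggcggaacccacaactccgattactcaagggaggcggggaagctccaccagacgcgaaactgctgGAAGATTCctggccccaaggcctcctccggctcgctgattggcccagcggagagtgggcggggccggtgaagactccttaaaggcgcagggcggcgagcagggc
Such a match was found in 13 of 23 windows (56.5%) of the 17 heat shock genes with a window, and in 15.1% of all windows. Neither Dnajb1 window held one.

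Feedback regulators of the same early signalling fell with it. Of 17 genes listed as MAPK phosphatases and mRNA decay factors, 15 fell and none rose (median -1.46). MAPK phosphatases shut off kinase signalling, and the decay factors degrade AU-rich mRNAs. The list also holds Gadd45b and Gadd45a, which are neither. Gadd45b, a stress sensor that acts on MAP kinases, was at 83.6, 54.1, 45.2 and 62.5 CPM in young 1 day lungs, against 276, 242, 236 and 252 CPM in young 1 h lungs. Gadd45b had a log2 change of -2.04 ± 0.16 (adjusted p = 1.21e-08). Gadd45a averaged 13.1 ± 2.97 CPM at 1 day and 54.7 ± 6.39 CPM at 1 h, Dusp8 34.00 ± 5.63 CPM at 1 day and 109 ± 15.6 CPM at 1 h and Dusp10 11.6 ± 0.844 CPM at 1 day and 31.8 ± 7.41 CPM at 1 h. The kinase gene Map3k6, among the largest differences between ages, averaged 55.1 ± 21.4 CPM at 1 day and 283 ± 46.8 CPM at 1 h (-2.36 ± 0.37).

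**Figure D2:**
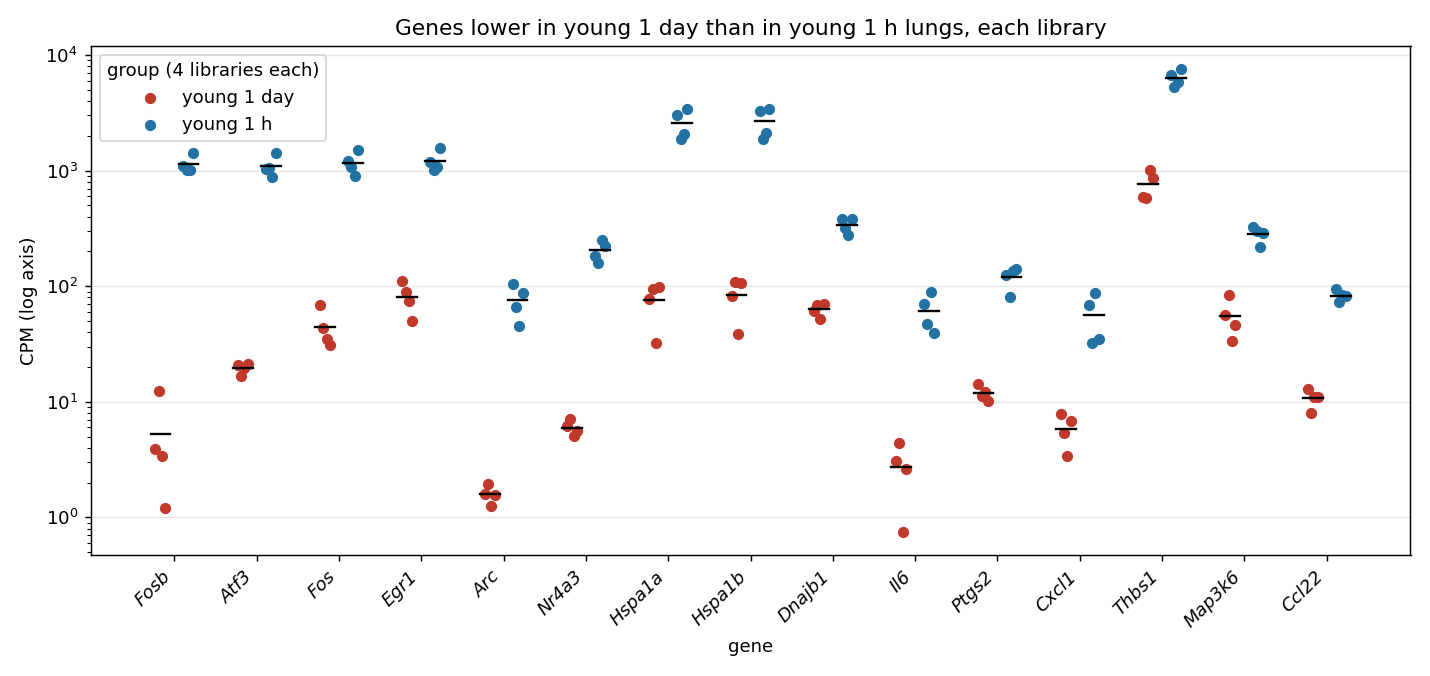
CPM on a log axis of 15 genes that fell, in each young 1 day (red) and young 1 h (blue) library; bars are group means. The 2 times do not overlap for any gene shown; Hspa1a is at 32.5 to 98.2 CPM at 1 day and 1866 to 3411 CPM at 1 h.

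Among secreted signals, the falls were concentrated in a part of the list. Of 21 inflammatory cytokines and early chemokines 8 fell and none rose. Il6, a cytokine that induces the acute-phase response, was at 3.09, 4.36, 0.751 and 2.63 CPM in young 1 day lungs, against 70.5, 47.3, 88.9 and 39.4 CPM in young 1 h lungs (-4.54 ± 0.90, adjusted p = 0.000391), and its 1 day level was below sham (18.5 ± 5.24 CPM; -2.81 ± 0.85, adjusted p = 0.00897), a call lost with GC offsets (-1.96, adjusted p = 0.0546). Ptgs2, the inducible cyclooxygenase, was at 14.3, 11.2, 12.2 and 10.1 CPM in young 1 day lungs, against 126, 80.6, 134 and 142 CPM in young 1 h lungs. For Ptgs2 the log2 change was -3.33 ± 0.63 (adjusted p = 0.000243). The neutrophil chemokine Cxcl1 was at 7.83, 5.33, 3.37 and 6.84 CPM in young 1 day lungs, against 69.3, 32.3, 87.1 and 34.9 CPM in young 1 h lungs. Cxcl1 had a log2 change of -3.27 ± 0.74 (adjusted p = 0.00129).

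Csf3, the granulocyte growth factor, averaged 1.11 ± 0.480 CPM at 1 day and 12.8 ± 5.003 CPM at 1 h. Its neighbour in function Cxcl2 averaged 20.03 ± 14.4 CPM at 1 day and 48.6 ± 19.1 CPM at 1 h, with libraries that overlapped, and did not pass (-1.28 ± 0.80, adjusted p = 0.207). NF-kB subunits and feedback inhibitors fell in 13 of 15 cases with none higher (median -1.16). Tnfaip3, a ubiquitin editor that ends NF-kB signalling, was at 59.7, 42.98, 44.9 and 50.05 CPM in young 1 day lungs, against 235, 248, 297 and 247 CPM in young 1 h lungs. For Tnfaip3 the log2 change was -2.38 ± 0.31 (adjusted p = 4.49e-06). The inhibitor Nfkbia averaged 319 ± 55.3 CPM at 1 day and 783 ± 69.9 CPM at 1 h, and the subunit genes Rel 16.8 ± 2.71 CPM at 1 day and 60.3 ± 6.66 CPM at 1 h and Relb 53.1 ± 15.1 CPM at 1 day and 118 ± 8.41 CPM at 1 h. Against sham at 1 day, Rel was lower (-1.42 ± 0.20, adjusted p = 3.71e-06) whereas Relb was higher (0.56 ± 0.16, adjusted p = 0.00599) but not with GC offsets (0.10, adjusted p = 0.638) or without young 1 day replicate 4 (0.39, adjusted p = 0.0549).

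Genes of activated endothelium and of coagulation fell in 12 of 17 cases, with none higher (median -1.04). Thbs1, a platelet and matrix glycoprotein, was the most abundant of those named, at 595, 581, 1011 and 866 CPM in young 1 day lungs, against 6728, 5255, 5808 and 7565 CPM in young 1 h lungs (-3.05 ± 0.43, adjusted p = 1.03e-05), and its 1 day level did not pass against sham (-0.13 ± 0.40, adjusted p = 0.804). The plasminogen activator Plat was at 77.9, 67.04, 76.7 and 71.2 CPM in young 1 day lungs, against 215, 172, 170.4 and 154 CPM in young 1 h lungs. Plat had a log2 change of -1.28 ± 0.17 (adjusted p = 4.63e-06). The anticoagulant receptor Thbd averaged 566 ± 87.1 CPM at 1 day and 1164 ± 124 CPM at 1 h and the urokinase receptor Plaur 65.7 ± 11.02 CPM at 1 day and 253 ± 29.7 CPM at 1 h. Endothelial identity markers moved less: 13 of 23 fell and 1 rose, with a median of -0.41. The exception was Sox17, a transcription factor of arterial endothelium, at 166, 167, 113 and 144 CPM in young 1 day lungs, against 57.04, 89.9, 61.5 and 41.00 CPM in young 1 h lungs. For Sox17 the log2 change was 1.24 ± 0.23 (adjusted p = 0.000162). The endothelial receptor Robo4 averaged 100.1 ± 13.02 CPM at 1 day and 177 ± 6.82 CPM at 1 h, the fenestral protein gene Plvap 465 ± 112 CPM at 1 day and 896 ± 146 CPM at 1 h and the capillary carbonic anhydrase Car4 131 ± 9.60 CPM at 1 day and 177 ± 11.9 CPM at 1 h.

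The neutrophil markers are read with a limit that holds for every cell type below: in bulk tissue, fewer cells of a type and less RNA per cell cannot be told apart. Of 22 neutrophil markers 9 fell and 1 rose, and their summed level was 1195 to 1625 CPM at 1 day and 1527 to 3201 CPM at 1 h. Il1r2, the decoy IL-1 receptor, was at 17.9, 18.02, 12.8 and 22.6 CPM in young 1 day lungs, against 96.5, 49.8, 89.3 and 133 CPM in young 1 h lungs. Il1r2 had a log2 change of -2.37 ± 0.54 (adjusted p = 0.00135). The G-CSF receptor Csf3r averaged 81.5 ± 17.3 CPM at 1 day and 195 ± 82.7 CPM at 1 h and Retnlg 31.7 ± 8.11 CPM at 1 day and 130.3 ± 60.7 CPM at 1 h. The gene that rose, Lrg1, is also made by liver and endothelium and was at 444, 288, 350.2 and 433 CPM in young 1 day lungs, against 154, 109, 101.0 and 128 CPM in young 1 h lungs. For Lrg1 the log2 change was 1.62 ± 0.37 (adjusted p = 0.00112). The abundant alarmins S100a8 (107 ± 35.6 CPM at 1 day and 304 ± 95.1 CPM at 1 h) and S100a9 (268 ± 111 CPM at 1 day and 699 ± 286 CPM at 1 h) fell near the threshold (adjusted p = 0.0303 and 0.0437). Both lost the call when young 1 day replicate 2, 3 or 4 or young 1 h replicate 3 or 4 was left out, at adjusted p of 0.0573 to 0.0785 for S100a8 and 0.073 to 0.127 for S100a9. They also lost it with no low-count filter (adjusted p = 0.0572 and 0.0806). S100a9 lost it with GC offsets (adjusted p = 0.05225) and with limma on TPM (adjusted p = 0.0526) as well.

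Macrophage genes were among the steepest rises. Arg1 (Entrez 11846, chromosome 10), the arginase of wound-healing macrophages, had the largest change of any gene named: it was at 149, 85.2, 445 and 514 CPM in young 1 day lungs, against 1.49, 0.914, 1.42 and 1.07 CPM in young 1 h lungs. Arg1 had a log2 change of 7.91 ± 0.61 (241-fold, adjusted p = 1.6e-08). The 1 h libraries were all near 1 CPM, and at 1 day replicates 3 and 4 were well above replicates 1 and 2. Spp1, osteopontin, was at 300.4, 236, 701 and 616 CPM in young 1 day lungs, against 92.8, 60.1, 77.6 and 72.6 CPM in young 1 h lungs. For Spp1 the log2 change was 2.61 ± 0.30 (adjusted p = 1.26e-06). Trem2, a lipid receptor of macrophages, was at 13.4, 13.1, 24.1 and 24.6 CPM in young 1 day lungs, against 2.29, 3.33, 3.55 and 3.02 CPM in young 1 h lungs. Trem2 had a log2 change of 2.62 ± 0.35 (adjusted p = 5.01e-06). The lysosomal glycoprotein gene Gpnmb averaged 56.5 ± 6.54 CPM at 1 day and 18.8 ± 1.36 CPM at 1 h. For Arg1, Spp1 and Trem2 the same pair, young 1 day replicates 3 and 4, held the highest values. Of 16 macrophage repair genes 8 rose and 1 fell.

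Of 20 monocyte and recruited macrophage markers 15 rose and 1 fell (median 1.33), and their summed level was 1624 to 2410.4 CPM at 1 day and 1252 to 1326 CPM at 1 h. The lysosomal marker Cd68 was at 108, 96.2, 146 and 148 CPM in young 1 day lungs, against 42.5, 45.9, 42.3 and 46.3 CPM in young 1 h lungs. For Cd68 the log2 change was 1.49 ± 0.15 (adjusted p = 1.51e-07). The scavenger receptor Msr1 was at 28.1, 22.5, 59.4 and 60.3 CPM in young 1 day lungs, against 5.24, 5.30, 6.29 and 4.49 CPM in young 1 h lungs. Msr1 had a log2 change of 2.99 ± 0.36 (adjusted p = 1.65e-06). Fcgr1, the high-affinity IgG receptor, averaged 25.1 ± 12.8 CPM at 1 day and 3.32 ± 0.546 CPM at 1 h. Lgals3, galectin-3, averaged 462 ± 14.7 CPM at 1 day and 247 ± 28.7 CPM at 1 h, and the chemokine receptor Ccr2 of classical monocytes 39.3 ± 15.3 CPM at 1 day and 17.4 ± 5.56 CPM at 1 h.

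Resident alveolar macrophage markers changed in both directions, at shares near or below those of all genes. Marco, a scavenger receptor of alveolar macrophages that other macrophages can also switch on, was at 102, 122, 163 and 125 CPM in young 1 day lungs, against 13.3, 12.4, 8.39 and 8.62 CPM in young 1 h lungs. For Marco the log2 change was 3.59 ± 0.63 (adjusted p = 0.00013). The chitinase-like gene Chil3 averaged 427 ± 58.96 CPM at 1 day and 195 ± 10.1 CPM at 1 h, and the ribonuclease gene Ear1 fell, averaging 5.24 ± 1.92 CPM at 1 day and 10.3 ± 2.17 CPM at 1 h, with overlap. In all 4 of 15 rose and 2 fell, which is near the 24.5% and below the 22.1% of all genes. Only 2 rose when young 1 day replicate 1 or 3 or young 1 h replicate 2 or 4 was left out. The call of Ear1 was lost without young 1 day replicate 3 or 4 (adjusted p 0.0578 and 0.0634). Cd5l, a macrophage-secreted protein, was at 7.60, 11.9, 37.8 and 36.6 CPM in young 1 day lungs, against 1.98, 0.219, 0.304 and 1.35 CPM in young 1 h lungs. Cd5l had a log2 change of 4.63 ± 0.86 (or 5.29 without young 1 h replicate 1). Pf4, a chemokine of platelets that macrophages also make, was at 31.9, 41.4, 93.6 and 84.3 CPM in young 1 day lungs, against 13.04, 11.9, 13.3 and 8.02 CPM in young 1 h lungs. For Pf4 the log2 change was 2.44 ± 0.30 (adjusted p = 2.56e-06). It was the 1 gene of 11 red cell and platelet genes that rose, and 3 of the 11 fell, where 24.5% and 22.1% of all genes did.

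Chemokines that attract macrophages and eosinophils changed in both directions, with 6 of 11 higher and 4 lower. The eosinophil chemokine Ccl24 was at 29.4, 7.26, 80.6 and 127 CPM in young 1 day lungs, against 2.08, 3.91, 3.02 and 3.62 CPM in young 1 h lungs. Ccl24 had a log2 change of 4.28 ± 0.79 (or 3.63 without young 1 day replicate 4). Ccl9 averaged 78.9 ± 45.2 CPM at 1 day and 19.1 ± 2.03 CPM at 1 h. The pair Ccl17 and Ccl22, ligands of CCR4, fell: Ccl22 was at 12.8, 7.94, 10.97 and 11.1 CPM in young 1 day lungs, against 93.9, 72.4, 83.9 and 82.1 CPM in young 1 h lungs (-2.96 ± 0.29, adjusted p = 2.28e-07) and Ccl17 averaged 4.83 ± 1.75 CPM at 1 day and 31.4 ± 5.10 CPM at 1 h. Both were below sham at 1 day (-1.77 ± 0.28 and -1.36 ± 0.34).

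**Figure D3:**
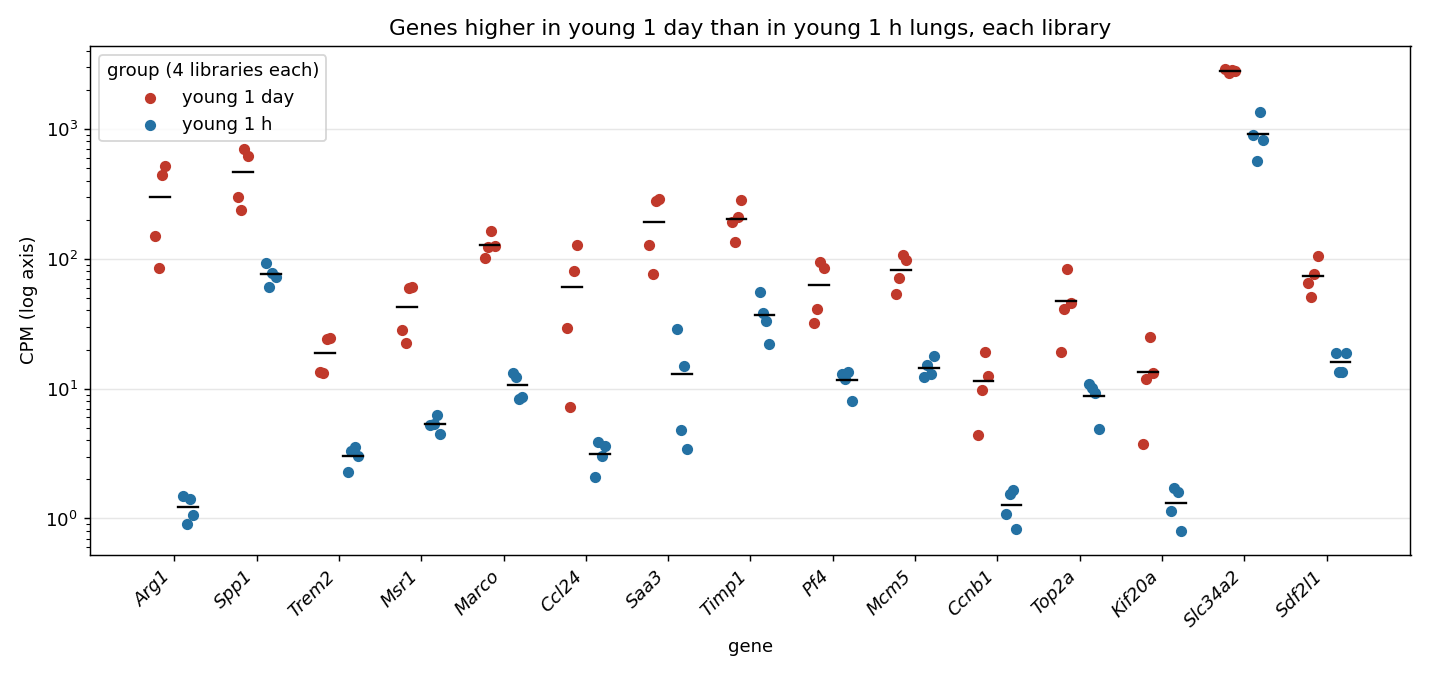
CPM on a log axis of 15 genes that rose, in each young 1 day (red) and young 1 h (blue) library; bars are group means. The 2 times do not overlap for any gene shown; Arg1 is at 85.2 to 514 CPM at 1 day and 0.914 to 1.49 CPM at 1 h.

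Of 15 local acute-phase genes 4 rose and 2 fell, which is near the 24.5% and below the 22.1% of all genes. Saa3, a serum amyloid A made in tissues, was at 128, 76.5, 279 and 289.8 CPM in young 1 day lungs, against 29.00, 4.79, 14.8 and 3.42 CPM in young 1 h lungs. For Saa3 the log2 change was 3.89 ± 0.75 (adjusted p = 0.000315; 4.63 without young 1 h replicate 1). Lcn2, which sequesters bacterial siderophores, was at 575, 436, 536 and 797 CPM in young 1 day lungs, against 192, 133, 179.6 and 173 CPM in young 1 h lungs. Lcn2 had a log2 change of 1.79 ± 0.45 (adjusted p = 0.00269). The protease inhibitor Serpina3n averaged 1078 ± 205 CPM at 1 day and 278 ± 77.5 CPM at 1 h. Of 11 complement genes 5 rose and 1 fell, and 3 rose without young 1 day replicate 1 or young 1 h replicate 1. None fell without young 1 day replicate 1, 3 or 4 or young 1 h replicate 1 or 2. The alternative pathway factor Cfb averaged 98.3 ± 24.00 CPM at 1 day and 31.4 ± 6.90 CPM at 1 h and the anaphylatoxin receptor C3ar1 28.9 ± 13.6 CPM at 1 day and 8.51 ± 0.619 CPM at 1 h.

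Interferon-stimulated genes rose in 14 of 23 cases with none lower (median 0.72), though the 1 day libraries were far apart. The nucleic acid sensor Zbp1 was at 38.4, 24.1, 15.2 and 51.7 CPM in young 1 day lungs, against 10.1, 11.7, 10.1 and 10.8 CPM in young 1 h lungs. For Zbp1 the log2 change was 1.60 ± 0.30 (adjusted p = 0.000182). Replicate 4 was the highest and replicate 3 the lowest at 1 day for Zbp1. The antiviral gene Oas1a averaged 29.5 ± 11.9 CPM at 1 day and 10.8 ± 0.620 CPM at 1 h, Ifit3 108 ± 27.05 CPM at 1 day and 46.96 ± 13.1 CPM at 1 h, and the ubiquitin-like modifier Isg15 27.5 ± 12.5 CPM at 1 day and 12.8 ± 1.69 CPM at 1 h with overlap. The summed level of the list was 622 to 1557 CPM at 1 day and 609 to 708 CPM at 1 h. The count of 14 was 9 without young 1 day replicate 4 and 9 without young 1 h replicate 3.

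DNA replication and mitotic genes rose with 1 exception. Of 27 DNA replication genes 26 rose and none fell, with a median of 1.68 and no overlap between the times in those 26; over all genes 21.4% had every 1 day library above every 1 h library and 16.4% had it below. The exception, Mcm10, is outside the naming rule and is given because it was alone. Mcm5, a subunit of the replicative helicase, was at 53.97, 71.4, 107 and 97.98 CPM in young 1 day lungs, against 12.4, 15.1, 12.9 and 17.8 CPM in young 1 h lungs. For Mcm5 the log2 change was 2.51 ± 0.29 (adjusted p = 9.98e-07). Mcm2 was at 55.7, 66.4, 93.5 and 79.2 CPM in young 1 day lungs, against 16.03, 20.5, 20.4 and 22.1 CPM in young 1 h lungs. Mcm2 had a log2 change of 1.90 ± 0.22 (adjusted p = 1.31e-06). Mcm7 averaged 68.2 ± 15.1 CPM at 1 day and 21.7 ± 2.89 CPM at 1 h, and Tyms, which makes thymidylate, 17.4 ± 6.81 CPM at 1 day and 4.52 ± 0.674 CPM at 1 h. Dtl, which directs the destruction of replication licensing factors, averaged 9.35 ± 4.45 CPM at 1 day and 0.871 ± 0.154 CPM at 1 h. In the comparisons with sham, 26 of the 27 were higher at 1 day, where 27.9% of all genes were. At 1 h, 3 were higher and 3 lower, shares below the 21.2% and 20.1% of all genes. None was lower at 1 h with GC offsets or without young 1 h replicate 4 or young sham replicate 1. Without young 1 h replicate 1 or 2 or young sham replicate 2 or 4, 1 was lower.

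All 26 mitotic genes rose, with a median of 2.43, and in 24 the libraries of the 2 times did not overlap. Ccnb1, the cyclin of mitotic entry, was at 4.38, 9.73, 19.3 and 12.6 CPM in young 1 day lungs, against 1.08, 1.53, 1.65 and 0.834 CPM in young 1 h lungs. For Ccnb1 the log2 change was 3.16 ± 0.48 (adjusted p = 1.89e-05). Top2a, the topoisomerase that untangles chromosomes, was at 19.2, 41.3, 83.5 and 45.3 CPM in young 1 day lungs, against 10.9, 10.1, 9.25 and 4.93 CPM in young 1 h lungs. Top2a had a log2 change of 2.43 ± 0.51 (adjusted p = 0.000605). Mki67, the Ki-67 proliferation marker, was at 23.5, 44.3, 88.4 and 39.1 CPM in young 1 day lungs, against 14.9, 12.5, 14.4 and 7.83 CPM in young 1 h lungs. For Mki67 the log2 change was 1.98 ± 0.47 (adjusted p = 0.0018). In these genes young 1 day replicate 3 was the highest and replicate 1 the lowest of the 1 day libraries, and the lowest of the 1 day libraries still lay above every library at 1 h.

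The kinesin Kif20a averaged 13.5 ± 8.84 CPM at 1 day and 1.31 ± 0.425 CPM at 1 h (3.35 ± 0.57), the mitotic kinases Plk1 14.6 ± 5.53 CPM at 1 day and 2.65 ± 0.535 CPM at 1 h and Aurka 8.33 ± 3.59 CPM at 1 day and 1.74 ± 0.148 CPM at 1 h, and the anaphase activator Cdc20 20.7 ± 8.37 CPM at 1 day and 5.47 ± 0.831 CPM at 1 h. Taken as its most abundant single transcript, each of Top2a, Mki67 and Kif20a kept its direction without passing (adjusted p 0.0526, 0.235 and 0.278). Hmmr, Pbk, Ankle1 and Kntc1, all among the 12 largest rises and known from dividing cells, rose by log2 values of 3.31 ± 0.57, 3.33 ± 0.70, 3.33 ± 0.47 and 3.30 ± 0.62. The summed level of the mitotic list was 89.1 to 141 CPM in sham, 66.9 to 96.2 CPM in young 1 h and 182 to 653 CPM in young 1 day lungs. Of 7 cyclin-dependent kinase inhibitors 2 rose and 2 fell, shares near those of all genes (24.5% and 22.1%). Cdkn1a, p21, was at 162, 113, 109.7 and 148 CPM in young 1 day lungs, against 598, 329.8, 498 and 475 CPM in young 1 h lungs (-1.84 ± 0.31, adjusted p = 6.31e-05), whereas Cdkn2c averaged 21.9 ± 3.14 CPM at 1 day and 9.69 ± 1.96 CPM at 1 h and Cdkn1c 85.4 ± 19.5 CPM at 1 day and 36.4 ± 2.05 CPM at 1 h.

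Promoter windows of 3 cell cycle genes are shown because their lists moved as a whole, each 250 bases before the RefSeq start on GRCm38.p6. In Mcm5 (chr8:75109259-75109508, plus strand) the E2F site is in capitals, and in Ccnb1 (chr13:100786487-100786736, minus strand) and Cdk1 (chr10:69352913-69353162, minus strand) the capitals mark CCAAT boxes and matches to the CHR, the cell cycle homology region. Cdk1, the kinase partner of cyclin B1, is outside the naming rule and was picked for its window after its values were seen.
Mcm5: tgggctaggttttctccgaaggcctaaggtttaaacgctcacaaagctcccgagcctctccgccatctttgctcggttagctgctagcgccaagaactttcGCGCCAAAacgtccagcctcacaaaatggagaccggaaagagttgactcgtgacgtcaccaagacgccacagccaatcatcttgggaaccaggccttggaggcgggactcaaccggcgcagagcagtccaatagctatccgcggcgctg
Ccnb1: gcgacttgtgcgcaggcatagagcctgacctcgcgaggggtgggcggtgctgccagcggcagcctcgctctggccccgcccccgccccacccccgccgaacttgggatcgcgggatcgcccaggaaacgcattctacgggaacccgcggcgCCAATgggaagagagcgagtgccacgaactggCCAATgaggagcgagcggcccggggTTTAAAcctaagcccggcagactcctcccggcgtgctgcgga
Cdk1: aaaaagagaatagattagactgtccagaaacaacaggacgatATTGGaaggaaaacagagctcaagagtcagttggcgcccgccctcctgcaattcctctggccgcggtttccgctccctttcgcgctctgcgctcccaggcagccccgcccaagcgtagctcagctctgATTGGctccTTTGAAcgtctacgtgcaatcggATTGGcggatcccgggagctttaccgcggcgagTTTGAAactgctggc
Here the E2F site was TTTGGCGC, TTTCCCGC or TTTGGCGG, the CHR was TTTGAA or TTTAAA and the CCAAT box was CCAAT, on either strand. An E2F site was found in 8 of 27 windows (29.6%) of DNA replication genes and in 2.1% of all windows. A CHR was found in 19 of 22 windows (86.4%) of mitotic genes and in 27.6% of all windows, and a CCAAT box in 19 of the 22 (86.4%) and in 37.4% of all windows. In Cdk1 the CCAAT boxes lie on the opposite strand and read ATTGG.

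The alveolar epithelium gave a mixed picture. Of 16 alveolar type 2 markers 8 rose and none fell (median 0.62). Slc34a2, the phosphate transporter of these cells, was at 2890.5, 2678, 2834 and 2782 CPM in young 1 day lungs, against 895, 561, 1349 and 825 CPM in young 1 h lungs (1.62 ± 0.30, adjusted p = 0.00019), and Sftpb, a surfactant protein gene, at 10133, 7858, 7227 and 9813 CPM in young 1 day lungs, against 4659, 4781, 5106 and 5006 CPM in young 1 h lungs. Sftpb had a log2 change of 0.84 ± 0.19 (adjusted p = 0.00094). Napsa, which processes surfactant proteins, averaged 493 ± 39.4 CPM at 1 day and 294 ± 47.5 CPM at 1 h, and the transcription factor Etv5 219 ± 16.04 CPM at 1 day and 101.4 ± 13.03 CPM at 1 h. In the comparisons with sham, 1 of the 16 was higher and 3 lower at 1 h, where 21.2% and 20.1% of all genes were. The share that was lower is thus near that of all genes. At 1 day 8 were higher (4 to 8 over all alternatives run) and none lower, where 27.9% and 26.0% of all genes were. Slc34a2 and Etv5 did not pass against sham at 1 day (0.55 and 0.43, adjusted p = 0.128 and 0.0762), nor with GC offsets. Sftpc, with overlapping libraries, did not pass (-0.15 ± 0.18, adjusted p = 0.5). Of 17 alveolar type 1 markers 2 rose and 7 fell: Igfbp2 averaged 77.6 ± 4.32 CPM at 1 day and 179.6 ± 46.9 CPM at 1 h and Gprc5a 676 ± 71.5 CPM at 1 day and 961 ± 133 CPM at 1 h, while podoplanin, Pdpn, averaged 160.1 ± 20.6 CPM at 1 day and 107 ± 15.1 CPM at 1 h. Ager overlapped and did not pass (-0.13 ± 0.14, adjusted p = 0.466).

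Genes of injured, transitional epithelium fell in 9 of 15 cases and rose in 2, but most had not come down to the sham level. The tight junction gene Cldn4 was at 34.4, 29.9, 31.5 and 17.03 CPM in young 1 day lungs, against 114, 129, 65.9 and 112 CPM in young 1 h lungs (-1.90 ± 0.22, adjusted p = 9.98e-07), with sham at 8.98 ± 1.65 CPM. Sfn, the epithelial 14-3-3 protein, averaged 76.5 ± 15.3 CPM at 1 day and 270.2 ± 71.02 CPM at 1 h, and sham averaged 26.6 ± 5.79 CPM. In the comparisons with sham, 13 of the 15 were higher at 1 h and 10 were higher at 1 day, with none lower at either time. Of all genes 21.2% were higher at 1 h and 27.9% at 1 day. The EGF receptor ligands Areg (14.3 ± 4.51 CPM at 1 day and 63.4 ± 12.6 CPM at 1 h) and Hbegf (88.2 ± 18.9 CPM at 1 day and 182 ± 20.9 CPM at 1 h) fell and likewise stood above sham at 1 day (1.38 ± 0.33 and 0.75 ± 0.16).

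**Figure D4:**
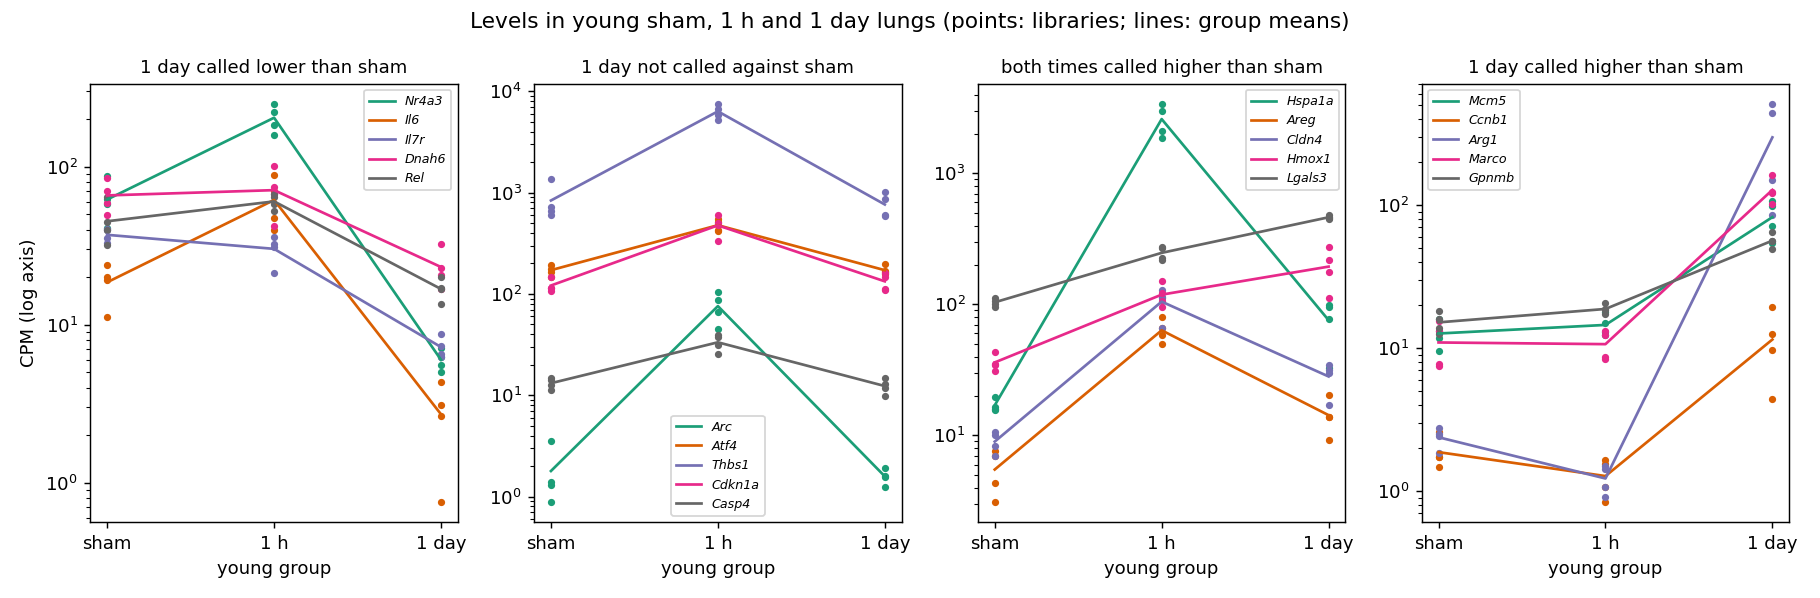
CPM on a log axis in young sham, 1 h and 1 day lungs for 20 genes in 4 panels grouped by their calls against sham; points are libraries and lines join group means. With GC offsets 3 of the 20 would change panel at 1 day: Il6 loses its call, Atf4 (-0.36) is called lower and Casp4 (0.46) higher. Nr4a3 averages 61.97 CPM in sham, 204 CPM at 1 h and 5.99 CPM at 1 day, and Gpnmb 15.1 CPM in sham, 18.8 CPM at 1 h and 56.5 CPM at 1 day.

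Airway genes fell without an early rise in most members. All 16 ciliated cell markers fell, with a median of -1.30, and the libraries of the 2 times did not overlap in 8 of them. Tppp3, a microtubule protein of cilia, was at 242, 276, 216 and 247 CPM in young 1 day lungs, against 542, 554, 437 and 496 CPM in young 1 h lungs. For Tppp3 the log2 change was -1.05 ± 0.11 (adjusted p = 3.85e-07). The axonemal dynein Dnah6 was at 22.7, 32.5, 16.8 and 20.6 CPM in young 1 day lungs, against 66.9, 74.8, 42.00 and 100.4 CPM in young 1 h lungs (-1.62 ± 0.24, adjusted p = 1.93e-05), with sham at 65.8 ± 15.1 CPM. Against sham, 14 of the 16 were lower at 1 day, and 2 were higher and 1 lower at 1 h (1 to 4 and 0 to 3 over all alternatives run). Of all genes 26.0% were lower at 1 day, and 21.2% were higher and 20.1% lower at 1 h. Of 12 club and secretory airway markers 7 fell and none rose. The club cell secretoglobin Scgb1a1 was at 12504, 10408, 7611 and 9416 CPM in young 1 day lungs, against 18282, 20647, 13874 and 17566 CPM in young 1 h lungs (-0.82 ± 0.17, adjusted p = 0.000491), and Scgb3a2 averaged 128 ± 84.6 CPM at 1 day and 516 ± 213 CPM at 1 h, with overlap. Aldh1a1, a retinaldehyde dehydrogenase of airway cells, averaged 426 ± 185 CPM at 1 day and 1040.0 ± 286 CPM at 1 h.

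Cardiac-type muscle genes, which line the pulmonary veins and also come with any attached heart tissue, moved beside the airway genes: 8 of 10 fell, with summed levels of 330.0 to 1422 CPM in sham, 926 to 4589.8 CPM at 1 h and 82.1 to 1223 CPM at 1 day. With the 8 libraries fitted alone 3 of the 10 were called. Their libraries overlapped in all but 1 of the 10, the actin gene Actc1 (59.8 ± 33.5 CPM at 1 day and 521 ± 294 CPM at 1 h), and Tnni3, troponin I, fell by 2.72 on the log2 scale, or by 4.12 without young 1 day replicate 2. None of the 10 had a mean of 0. How far the amount of hilar tissue in each sample entered the airway and muscle values was not tested.

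Lymphocyte markers differed by lineage. All 20 T cell markers fell (median -0.99), 17 of them with no overlap, and their summed level was 334 to 402 CPM in sham, 309.6 to 471 CPM at 1 h and 175 to 208 CPM at 1 day. Il7r, the IL-7 receptor of naive and memory T cells, was at 6.54, 7.33, 8.74 and 6.24 CPM in young 1 day lungs, against 31.2, 21.4, 32.5 and 35.6 CPM in young 1 h lungs. Il7r had a log2 change of -2.06 ± 0.22 (adjusted p = 4.19e-07). The transcription factor Tcf7 averaged 28.1 ± 4.81 CPM at 1 day and 59.8 ± 6.31 CPM at 1 h and the receptor subunit Cd3e 4.82 ± 0.692 CPM at 1 day and 9.70 ± 2.77 CPM at 1 h. Against sham, 16 were lower at 1 day, and 2 were higher and 1 lower at 1 h (0 to 3 and 0 to 5 over all alternatives run). Of all genes 26.0% were lower at 1 day, and 21.2% were higher and 20.1% lower at 1 h.

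B cell markers fell in 2 of 14 cases and rose in none, shares below the 22.1% and 24.5% of all genes. None fell without young 1 day replicate 1, 2 or 3 or young 1 h replicate 3 or 4. Of 10 natural killer cell markers 4 fell, among them the receptor Klrb1c (4.34 ± 0.619 CPM at 1 day and 7.16 ± 0.421 CPM at 1 h); the count was 1 or 2 without young 1 day replicate 2 or 4 or young 1 h replicate 1 or 3. MHC class II and dendritic cell genes fell in 4 of 13 cases and rose in 1, where 22.1% and 24.5% of all genes did. H2-Aa averaged 307 ± 40.9 CPM at 1 day and 491 ± 88.5 CPM at 1 h, and the lectin Cd209a 1.56 ± 0.395 CPM at 1 day and 6.02 ± 1.04 CPM at 1 h.

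The stress lists held members that fell and members that rose, where 22.1% of all genes fell and 24.5% rose. Among 16 NRF2 targets, which detoxify oxidants, 5 fell and 7 rose. Osgin1 was at 32.5, 32.7, 21.8 and 30.4 CPM in young 1 day lungs, against 136, 153, 107 and 152 CPM in young 1 h lungs. Osgin1 had a log2 change of -2.22 ± 0.19 (adjusted p = 3.77e-08). The reductase Srxn1 averaged 59.4 ± 6.05 CPM at 1 day and 147 ± 34.2 CPM at 1 h. Thioredoxin reductase, Txnrd1, averaged 147 ± 16.4 CPM at 1 day and 291 ± 22.3 CPM at 1 h. Rising members included the heme-handling enzymes: biliverdin reductase Blvrb averaged 64.6 ± 11.2 CPM at 1 day and 33.1 ± 5.65 CPM at 1 h, and Hmox1 averaged 194 ± 67.6 CPM at 1 day and 119 ± 23.8 CPM at 1 h, with overlap. Hmox1 passed narrowly (adjusted p = 0.0273) and lost the call without young 1 day replicate 3 or 4 or young 1 h replicate 3 or 4 (adjusted p 0.0668 to 0.118). The count of 7 was 4 without young 1 day replicate 3.

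Hypoxia-inducible and glycolytic genes rose in 8 of 20 cases and fell in 7. Among glycolytic enzymes Eno1, Tpi1, Pgam1 and Ldha rose and Hk2 fell. Eno1 was at 485, 391.8, 631 and 630.4 CPM in young 1 day lungs, against 183, 191, 178 and 212 CPM in young 1 h lungs (1.48 ± 0.15, adjusted p = 2.99e-07), Tpi1 averaged 284 ± 50.7 CPM at 1 day and 142 ± 17.8 CPM at 1 h, Pgam1 156 ± 26.8 CPM at 1 day and 85.4 ± 5.82 CPM at 1 h and Ldha 663 ± 86.6 CPM at 1 day and 409 ± 66.9 CPM at 1 h. Hexokinase 2, Hk2, was at 67.7, 55.8, 58.3 and 77.1 CPM in young 1 day lungs, against 179, 189, 172 and 178 CPM in young 1 h lungs. For Hk2 the log2 change was -1.47 ± 0.17 (adjusted p = 1.33e-06).

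Of 16 unfolded protein response genes 8 were higher and 4 lower, the latter a share near the 22.1% of all genes. Sdf2l1, a chaperone cofactor of the endoplasmic reticulum, was at 64.6, 50.9, 75.97 and 105.3 CPM in young 1 day lungs, against 18.9, 13.4, 13.4 and 18.7 CPM in young 1 h lungs. Sdf2l1 had a log2 change of 2.20 ± 0.23 (adjusted p = 2.59e-07). The protein disulfide isomerase Pdia4 averaged 175 ± 35.4 CPM at 1 day and 88.4 ± 9.19 CPM at 1 h, and its relative Pdia6 372 ± 74.8 CPM at 1 day and 200.1 ± 28.8 CPM at 1 h. Herpud1, which acts in the removal of misfolded proteins, averaged 175 ± 29.7 CPM at 1 day and 341 ± 40.8 CPM at 1 h. In the integrated stress response 2 of 15 rose and 6 fell: the transcription factor Atf4 was at 196, 157, 166 and 167 CPM in young 1 day lungs, against 551, 512, 420.2 and 423 CPM in young 1 h lungs (-1.47 ± 0.12, adjusted p = 1.22e-08) and Ppp1r15a, which ends the response, averaged 73.7 ± 19.3 CPM at 1 day and 281 ± 31.5 CPM at 1 h, while the serine synthesis enzyme Psat1 averaged 37.6 ± 5.85 CPM at 1 day and 13.7 ± 2.44 CPM at 1 h. Of 15 p53 targets 7 fell and 2 rose. In this list and the one before it, the share that rose was below the 24.5% of all genes. Mdm2 averaged 65.1 ± 5.84 CPM at 1 day and 119.5 ± 7.56 CPM at 1 h. The death receptor Tnfrsf10b averaged 7.66 ± 0.663 CPM at 1 day and 24.8 ± 3.77 CPM at 1 h. The apoptosis effector Bax averaged 72.1 ± 7.05 CPM at 1 day and 52.01 ± 3.84 CPM at 1 h.

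Metallothioneins, which bind zinc and copper, fell. Mt1 was at 248, 243, 133 and 286 CPM in young 1 day lungs, against 958, 852, 631 and 885 CPM in young 1 h lungs. For Mt1 the log2 change was -1.87 ± 0.42 (adjusted p = 0.00111). Mt2 was at 153, 167, 97.7 and 201 CPM in young 1 day lungs, against 712, 506, 452 and 500.4 CPM in young 1 h lungs. Mt2 had a log2 change of -1.81 ± 0.43 (adjusted p = 0.00191). Against sham Mt1 was higher at 1 day (1.35 ± 0.41). Mt2 passed narrowly (1.04 ± 0.43, adjusted p = 0.045) and did not pass with GC offsets (0.77, adjusted p = 0.14) or without any one of young 1 day replicates 1, 2 and 4 and young sham replicates 3 and 4 (0.79 to 1.05, adjusted p 0.069 to 0.149). The zinc importer Slc39a8 rose, averaging 290.2 ± 18.7 CPM at 1 day and 183 ± 28.3 CPM at 1 h.

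Housekeeping machinery rose by small amounts in many members. Proteasome subunits rose in 21 of 26 cases with none lower (median 0.39); Psmb5 was at 92.1, 82.03, 98.2 and 92.7 CPM in young 1 day lungs, against 56.3, 55.03, 50.6 and 48.4 CPM in young 1 h lungs. For Psmb5 the log2 change was 0.79 ± 0.09 (adjusted p = 4.87e-07). Cytosolic ribosomal proteins rose in 15 of 20 cases (median 0.31), with Rps2 at 962 ± 145 CPM at 1 day and 496 ± 28.5 CPM at 1 h, and ribosome biogenesis genes in 9 of 15, with Pes1 at 86.5 ± 3.60 CPM at 1 day and 60.3 ± 0.681 CPM at 1 h. Processed copies of ribosomal protein genes are common in the genome, so reads of these genes may be shared among copies. Nuclear-encoded subunits of oxidative phosphorylation rose in 9 of 26 cases, and in 5 without young 1 h replicate 3. The 13 mitochondrial mRNAs had changes of -0.58 to -0.31, and 7 were called lower; the count ran from 2 without young 1 day replicate 4 to 13 without young 1 day replicate 3, and it was also over 1.5 times smaller without young 1 day replicate 1 (4), young 1 h replicate 1 (3) or young 1 h replicate 3 (4). Cholesterol and fatty acid synthesis genes fell in 8 of 22 cases and rose in 1, with Insig1, which holds back sterol synthesis, at 51.5 ± 6.65 CPM at 1 day and 109 ± 14.8 CPM at 1 h.

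Matrix and fibroblast genes rose in 8 of 18 cases and fell in 1. The collagen gene Col3a1 was at 1644, 2346, 2882 and 2474 CPM in young 1 day lungs, against 821, 1122, 529 and 459.7 CPM in young 1 h lungs. Col3a1 had a log2 change of 1.67 ± 0.40 (adjusted p = 0.00184). Tnc, tenascin-C, was at 287, 241, 688 and 475 CPM in young 1 day lungs, against 166, 120.4, 106 and 96.3 CPM in young 1 h lungs. For Tnc the log2 change was 1.79 ± 0.46 (adjusted p = 0.00356). Fibronectin, Fn1, averaged 2333 ± 843 CPM at 1 day and 1022 ± 68.8 CPM at 1 h, and periostin, Postn, fell, averaging 161 ± 19.8 CPM at 1 day and 305 ± 70.1 CPM at 1 h. Col1a1 did not pass although its libraries did not overlap (1568 ± 242 CPM at 1 day and 859 ± 254 CPM at 1 h, log2 change 0.87 ± 0.36, adjusted p = 0.0555). It passed with DESeq2 (adjusted p = 0.039), at least 1 CPM in 4 libraries (0.0481), limma on TPM (0.0461) and the 8 libraries alone (0.00676). It also passed without young 1 h replicate 2 (adjusted p = 0.0312). Among 13 TIMPs, Adamts and metalloproteinases 3 rose and 6 fell, where 24.5% and 22.1% of all genes did. Timp1, an inhibitor of metalloproteinases, was at 191, 134, 208 and 282 CPM in young 1 day lungs, against 55.1, 37.97, 33.2 and 22.2 CPM in young 1 h lungs (2.46 ± 0.35, adjusted p = 1.19e-05), whereas Timp3 averaged 645 ± 200.4 CPM at 1 day and 1537 ± 244 CPM at 1 h and the proteases Adamts1 296 ± 20.7 CPM at 1 day and 731 ± 60.4 CPM at 1 h and Adamts9 43.3 ± 8.12 CPM at 1 day and 142 ± 23.2 CPM at 1 h.

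Of 13 glucocorticoid-induced genes 8 fell and 1 rose: the EGF receptor inhibitor Errfi1 averaged 212 ± 23.2 CPM at 1 day and 934 ± 145 CPM at 1 h and the kinase Sgk1 99.6 ± 24.4 CPM at 1 day and 252 ± 41.5 CPM at 1 h. Of 17 circadian genes 5 fell, a share near the 22.1% of all genes, and none rose; Per1 (164 ± 50.8 CPM at 1 day and 357 ± 78.7 CPM at 1 h) and Cry2 (71.3 ± 15.2 CPM at 1 day and 169 ± 32.9 CPM at 1 h) were among those that fell. The clock output gene Dbp was at 86.3, 56.2, 68.4 and 33.1 CPM in young 1 day lungs, against 8.47, 108, 7.55 and 18.8 CPM in young 1 h lungs and did not pass (0.78 ± 0.73, adjusted p = 0.406). Young 1 h replicate 2 stood apart, and without it Dbp was higher at 1 day (2.41, adjusted p = 0.00655). Clock hours of tissue collection are not given.

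Among 12 prostaglandin and leukotriene enzymes 5 rose and 3 fell: thromboxane synthase, Tbxas1, averaged 20.5 ± 7.81 CPM at 1 day and 7.06 ± 0.798 CPM at 1 h, leukotriene C4 synthase, Ltc4s, 18.8 ± 3.78 CPM at 1 day and 7.43 ± 0.740 CPM at 1 h, and the prostaglandin-degrading enzyme Hpgd 172 ± 69.01 CPM at 1 day and 344 ± 65.4 CPM at 1 h, with overlap. Among 13 IL-1 family and inflammasome genes 3 rose and 3 fell, shares near those of all genes (24.5% and 22.1%): the adaptor Pycard was at 28.7, 21.7, 31.7 and 48.9 CPM in young 1 day lungs, against 8.22, 9.79, 9.51 and 9.85 CPM in young 1 h lungs (1.81 ± 0.26, adjusted p = 9.46e-06), while the inflammatory caspase Casp4 averaged 12.3 ± 2.04 CPM at 1 day and 33.3 ± 6.29 CPM at 1 h and the sensor Nlrp3 11.4 ± 5.03 CPM at 1 day and 36.01 ± 12.3 CPM at 1 h. Of the lists not described above, mesothelial markers had 1 of 7 higher and 2 lower, plasma cell markers 1 of 8 higher and 1 lower, D-type cyclins and EGF-family ligands 2 of 10 higher and 4 lower, and ion and water transport genes 1 of 8 higher and 2 lower. Over all genes 24.5% were higher and 22.1% lower.

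The change between 1 h and 1 day was also tested for a difference between young and old lungs. The test asks whether the log2 change in young lungs minus that in old lungs differs from 0, and it called 558 genes (2.83%) with a higher and 827 (4.20%) with a lower value in young. Among mitotic genes 16 of 26 had a higher change in young and none a lower one. Ccnb1 averaged 2.15 ± 0.899 CPM in old 1 day and 1.60 ± 0.980 CPM in old 1 h lungs, and its difference between ages was 2.74 ± 0.65 (adjusted p = 0.0171). Cenpf averaged 9.11 ± 5.27 CPM at 1 day and 1.38 ± 0.601 CPM at 1 h, and 2.19 ± 1.54 CPM in old 1 day and 2.95 ± 1.96 CPM in old 1 h lungs (3.14 ± 0.80, adjusted p = 0.0244; 0.0523 to 0.0575 without young 1 h replicate 1, old 1 day replicate 4 or old 1 h replicate 2). The median change of the list was 2.43 in young and 0.26 in old lungs, where none rose and 1 fell (24.1% and 20.9% of all genes). Among DNA replication genes 12 of 27 had a higher change in young and none a lower one; the medians were 1.68 in young and 0.61 in old lungs, where 12 rose.

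Old 1 day replicate 1 stood apart from its group. The summed level of the mitotic list was 182 to 653 CPM in young 1 day lungs, against 230.8 CPM in old 1 day replicate 1 and 82.5 to 84.2 CPM in the other old 1 day libraries. That of DNA replication genes was 703 to 1305 CPM in young 1 day lungs, against 699 CPM in old 1 day replicate 1 and 346 to 387 CPM in the other old 1 day libraries. The counts depended on single libraries. Without old 1 day replicate 1 the mitotic count was 26 and the replication count 25. Without the other libraries that moved it over 1.5 times (young 1 h replicate 1, old 1 day replicates 3 and 4, and old 1 h replicate 2) the mitotic count was 8 to 10. The replication count was 4 to 7 without any one of young 1 day replicates 3 and 4, young 1 h replicates 1 and 2, old 1 day replicates 2, 3 and 4, or old 1 h replicates 1, 2 and 3, and 19 without young 1 day replicate 1. Over all genes the count of higher values was 268 to 1567 and that of lower values 327 to 1521 when 1 library was left out, the lowest without young 1 h replicate 1 and the highest without old 1 day replicate 1.

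**Figure D5:**
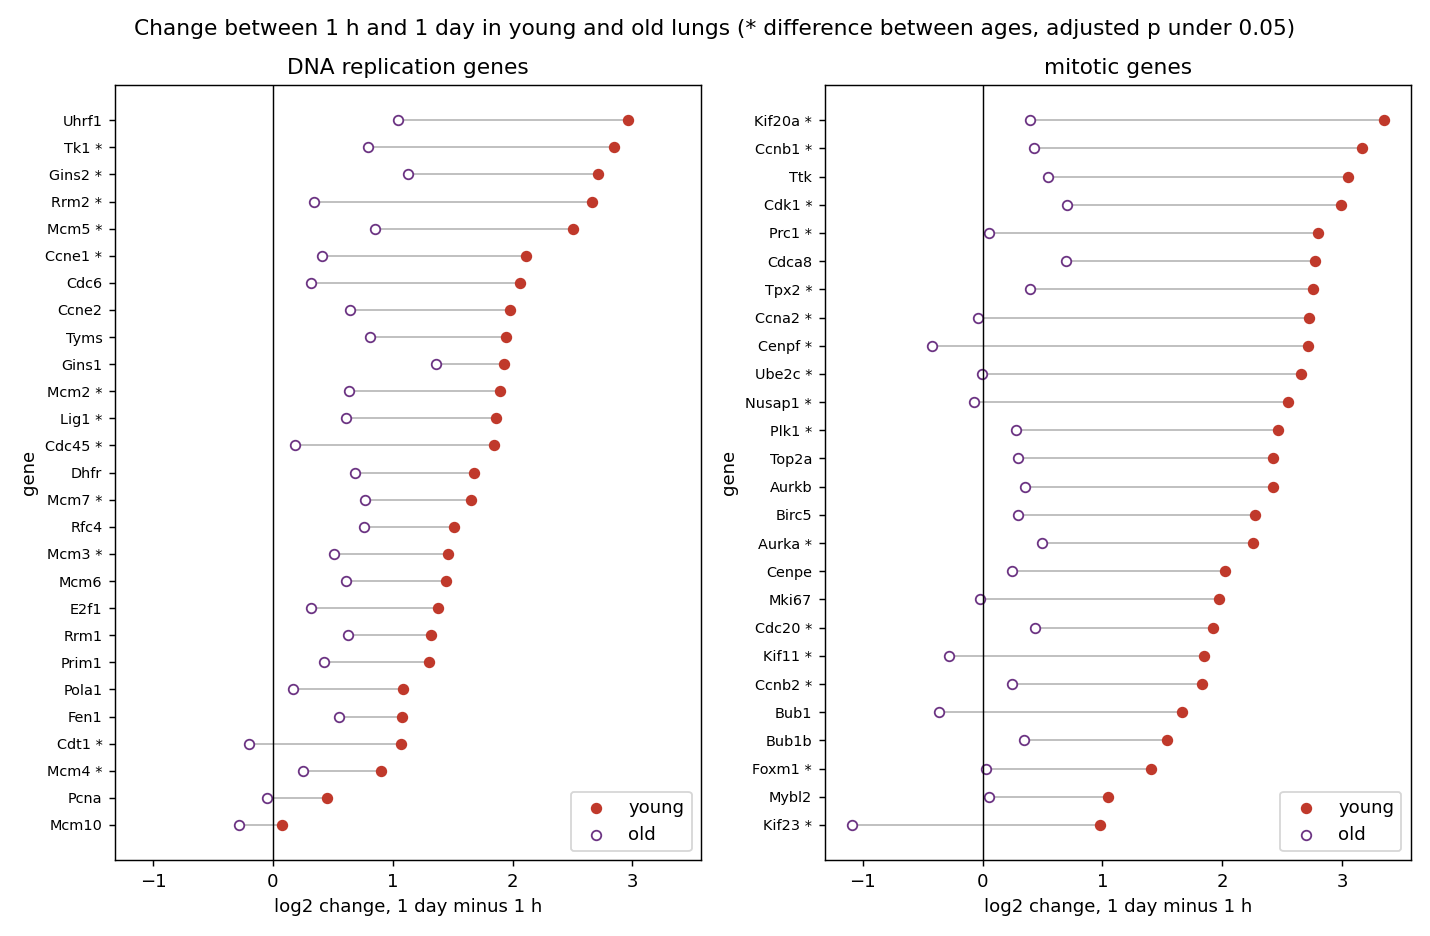
Log2 change between 1 h and 1 day in young (filled red) and old (open purple) lungs for the DNA replication genes (left) and mitotic genes (right); a star marks a difference between ages at an adjusted p under 0.05. The young points lie to the right of the old ones for every gene shown, with medians of 1.68 and 2.43 in young and 0.61 and 0.26 in old.

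Several genes had a lower change in young than in old lungs. Cdkn1a averaged 351 ± 165 CPM in old 1 day and 317 ± 124 CPM in old 1 h lungs, a difference of -1.98 ± 0.42 (adjusted p = 0.0111). Among 7 metallothioneins and zinc transporters 5 had a lower change in young: Mt1 averaged 597 ± 362 CPM in old 1 day and 470.0 ± 33.8 CPM in old 1 h lungs (-2.21 ± 0.58, adjusted p = 0.0284; 0.0503 to 0.0689 without young 1 day replicate 3, young 1 h replicate 1, old 1 day replicate 2 or 3, or old 1 h replicate 3 or 4), and Slc39a8, which rose at both ages, 802 ± 208 CPM in old 1 day and 130.4 ± 28.8 CPM in old 1 h lungs (-1.95 ± 0.23, adjusted p = 0.000502). Csf3, which fell in young lungs, averaged 11.5 ± 11.3 CPM in old 1 day and 9.09 ± 2.86 CPM in old 1 h lungs (-3.87 ± 0.98, adjusted p = 0.0235), or -2.95 (adjusted p = 0.0634) without old 1 day replicate 3 and -3.58 (adjusted p = 0.0585) without young 1 h replicate 1. Plat averaged 210.4 ± 49.5 CPM in old 1 day and 185 ± 30.4 CPM in old 1 h lungs (-1.47 ± 0.24, adjusted p = 0.00319). Immediate early genes differed in 1 of 27 cases and heat shock genes in 1 of 21, both lower in young. These shares are near the 4.20% of all genes called lower in young. Old 1 day replicate 2 stood apart, with a summed level of immediate early genes of 10641 CPM where the other old 1 day libraries had 2088 to 4869 CPM and old 1 h lungs 11674 to 18250 CPM. The immediate early count was 10 without old 1 day replicate 1, 3 without old 1 day replicate 4 and 0 or 1 without any other single library, replicate 2 included. The heat shock count was 0 to 3, and up to 4 others were higher in young (4 without old 1 day replicate 1).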

How the data were processed

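RNA from mouse lung had been made into 24 TruSeq Stranded mRNA libraries (6 groups of 4), per the labels' protocols. The submitters' processing notes name HISAT2, StringTie and GRCm38 (mm10); versions and the strand setting are not given in the sources used here. The authors deposited, per transcript and library, an estimated count, an FPKM and a TPM. Between 98.4% and 99% of the deposited estimated counts under 50 equal the FPKM times length rounded up, so summing transcripts adds up to 1 read for each. No other step used the deposited FPKM. The deposited TPM values were used, as log2(TPM + 1), in an alternative.

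Estimated counts of 129299 transcripts were summed by gene symbol (45777 symbols) and are whole numbers as deposited. Genes were kept with filterByExpr (minimum count 10), scaled by TMM and fitted with edgeR 4.0.16 (R 4.3.3; quasi-likelihood, robust) as 6 group means over all 24 libraries, so that all groups share 1 estimate of the spread. P-values were adjusted by Benjamini-Hochberg over all genes, with a threshold of 0.05. Leave-one-out fits also pool the spread over all groups, but the TMM factors and the spread are estimated again from the libraries that remain. Alternatives were run with DESeq2 1.42.0, limma 3.58.1, other filters, GC offsets, single transcripts and libraries left out. The test was also run on counts simulated with 1 common spread for all genes and without a GC trend or outlying libraries. That simulation cannot show how the test behaves where those features are present, as in these data. Genes named are the 12 largest changes each way whose libraries do not overlap and average at least 5 CPM in the higher group, the 4 smallest p-values in each of 51 lists, a fixed set, and the 8 largest differences between ages each way; the text gives a selection, and some genes are not reported here. Symbols starting with Gm and a digit or LOC, or ending in Rik, were passed over. Members and lists were chosen with earlier results of these data known, and some markers are shared by several cell types. Promoter windows are from RefSeq, matched by symbol.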

Additional observations from a re-analysis of the deposited data

Results flagged for a closer look

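Within the groups of 4, 11 single libraries of named genes stood apart from the other 3, out of 322 groups looked at (3.42%); chance gives about 1 in 20 groups. They were young 1 day replicate 1 for Sftpc (12352 CPM), replicate 2 for Plaur (49.3 CPM) and Tnni3 (36 CPM), and replicate 3 for Cdkn2c (26.6 CPM) and Chil3 (515 CPM). At 1 h they were replicate 1 for Plaur (296.8 CPM), Serpina3n (393 CPM) and Pdia4 (102 CPM), replicate 2 for Dbp (107.5 CPM), replicate 3 for Oas1a (9.86 CPM) and replicate 4 for Psat1 (10.1 CPM).

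The change of 1 day against 1 h differed between ages for 36 named genes, by edgeR's test of the difference itself at an adjusted p under 0.05; values are the log2 change in young minus that in old lungs. Cell cycle genes had higher values in young: 3.22 for Hmmr, 3.14 for Cenpf, 2.95 for Kif20a, 2.74 for Ccnb1, 2.19 for Plk1, 1.76 for Aurka, 1.48 for Cdc20, 1.66 for Mcm5, 1.26 for Mcm2 and 0.88 for Mcm7. So did the inhibitors Cdkn2c (1.12) and Cdkn1c (0.94), the chaperone cofactor Sdf2l1 (1.27) and the macrophage marker Cd68 (0.68). Secreted signals had lower values in young: -3.87 for Csf3, -2.37 for Ccl17 and -1.96 for Ccl22. Stress and metal genes did as well: -2.53 for Mt2, -2.21 for Mt1, -1.95 for Slc39a8, -1.98 for Cdkn1a, -1.06 for Osgin1, -0.61 for Txnrd1 and -0.77 for Atf4. Signalling genes were lower too, at -2.77 for Fosl1, -2.54 for Map3k6, -1.46 for Sgk1 and -0.99 for Gadd45b. Vascular, epithelial and matrix genes followed, at -1.47 for Plat, -1.02 for Plaur, -0.86 for Robo4, -1.49 for Adamts9, -1.25 for Cldn4, -1.29 for Igfbp2, -0.64 for Gprc5a and -1.10 for Hpgd.

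The calls of Txnrd1, Plaur, Fosl1, Cd68, Hpgd, Gprc5a, Cdc20, Cdkn1c and Mt1 were each lost under 8 or more of the alternatives, most of them with 1 library left out. Kif20a lost its call without young 1 h replicate 1, old 1 day replicate 2, 3 or 4 or old 1 h replicate 3 (adjusted p 0.0502 to 0.0566), Adamts9 without young 1 h replicate 1 (0.0507), Mcm7 without old 1 day replicate 4 (0.0503) and Osgin1 without old 1 day replicate 4 (0.0525). The value of Fosl1 was -1.68 without old 1 day replicate 3.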

How the results depend on the processing

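Direction was checked for 160 genes in the change of 1 day against 1 h, for 36 named age differences and for the mitochondrial share. None of these reversed under any alternative run. The counts of 4828 higher and 4355 lower genes kept within 1.5 times under DESeq2, other filters, GC offsets, limma on TPM, mitochondrial mRNAs left out and a fit of the 8 libraries alone; with 1 library left out they were 4334 to 4604 and 3731 to 4317. Single transcripts in place of genes gave 2290 higher and 1860 lower; the cause was not tested. The counts of age differences, 558 higher and 827 lower in young, moved more: DESeq2 called 1159 higher, no low-count filter left 439 lower, and leaving out 1 library gave 268 to 1567 higher and 327 to 1521 lower. The mitochondrial share difference was -0.403 to -0.177 percentage points with 1 library left out. Same-numbered young samples had r of -0.01, 0.30, 0.30 and -0.08 for numbers 1 to 4; numbers 2 and 3 correlated best with their own number and 1 and 4 did not, so the numbers are not taken as pairs. A replicate block gave 4668 higher and 4190 lower genes and 393 and 575 age differences, and with GC offsets 4578 and 4091, and 539 and 614. Of the named changes, 26 lost the call as single transcripts, all in the same direction. S100a8 and S100a9 lost it with the block and with no low-count filter, and S100a9 also with GC offsets and with limma on TPM. Of the 36 named age differences 8 lost it with the block (Csf3, Fosl1, Plaur, Cd68, Cdc20, Gprc5a, Txnrd1 and Hpgd; adjusted p 0.0572 to 0.0778), and 101 of 576 values did with 1 library left out. The comparisons with sham were rerun after seeing the data. With GC offsets 3129 genes were higher and 3439 lower at 1 h (4180 and 3958 without), and 4571 and 4551 at 1 day (5497 and 5119 without). With limma on TPM, which shifts the median of all genes to -0.17 at 1 h and -0.15 at 1 day, they were 2052 and 6916 at 1 h and 3760 and 7003 at 1 day. Of 16 genes named against sham other than Slc34a2 and Etv5, Arc reversed without young sham replicate 3 and Thbs1 without young sham replicate 2, neither called (-0.41 to 0.35 and -0.32 to 0.19 with 1 library left out). Of these 16, Il6, Mt2 and Relb lost their calls with GC offsets. Depth limits genes near 1 CPM, and 4 libraries a group limit small changes.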
